A study of Drosophila melanogaster with 82 samples.

Results

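Messages bound to ribosomes of the fly heart were compared between female Drosophila melanogaster kept on restricted food (DR) and on rich food (AL). The comparison took every array titled as heart, 11 of the 82 in the series, of which 5 were AL pools and 6 were DR pools. The other 71 arrays covered 6 more tissues and were used to set the heart response beside theirs. Neuron pools, 5 on AL food and 6 on DR food, held more flies each than the pools of every other tissue. All heart flies carried HAND4.2-GAL4 and UAS-RpL13A-His6FLAG in 1 copy each over wild type (+/+; HAND4.2-GAL4/+; UAS-RpL13A-His6FLAG/+), so AL and DR flies did not differ in genotype. AL food held 5% yeast extract and DR food 0.5%. Flies grew up on stock food, spent 10 days on either food and were 13 days old when collected, about 100 to a pool. Each array measured 1 pool, so replicates were separate pools of flies. For single transcripts, p-values measure the spread between pools of the same tissue and food, over all 82 arrays unless stated.

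The heart of the fly is a muscular tube that pumps haemolymph along the back of the animal, flanked by pericardial cells that filter it. Lower yeast intake is a common way to restrict protein in flies, and TORC1, the growth kinase that responds to amino acids, controls translation of many messages. In the heart line the GAL4 driver makes a tagged ribosomal protein, RpL13A, in cells where the Hand enhancer is active, which include both cardiac muscle cells and pericardial cells. Tagged ribosomes were pulled from homogenates of whole flies with FLAG beads, and the bound RNA was amplified, labelled with Cy3 and hybridised to NimbleGen single-colour arrays. A level on such an array depends on the amount of a message on tagged ribosomes relative to all other messages in the pulldown. Fewer cells of a type and less message per cell cannot be told apart in these pools. Messages of heart and pericardial cells, or carry-over from other tissues of the homogenate, are not separated either. Of 178 transcripts at least 2-fold above every other tissue on AL food, 86 passed as lower on DR food and 7 as higher (adjusted p below 0.05). Over all transcripts 27.1% passed as lower and 25.1% as higher. The median change of the 178 was -0.45, against -0.03 over all transcripts. They were chosen for high AL levels on these arrays, which favours falls, and the part of tissue content in the results was not tested. The heart, pericardial and other cell type markers listed for a check of the label, and RpL13A itself, had no transcript paired with them in the gene table used here and were not analysed here.

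Each array listed 16637 transcripts by FlyBase transcript identifier. The level of a transcript is the mean log2 intensity of its probes, 8 for 16616 of them. The gene table paired 14 transcripts with 1 gene bearing a symbol, 2 with a gene under a CG number, and 28 with more than 1 gene on a shared message. The other 16593 had no gene name here. Most of the 28 shared messages, 26, carried exactly 2 genes, and their value belongs to the message and not to either gene. Changes below are DR minus AL in log2 units with the standard error (SE) of the limma fit, n = 5 AL and 6 DR pools in heart. The SE and p-value of that fit rest on a spread estimated over all 82 arrays, not on the heart pools alone. A transcript passed at a Benjamini-Hochberg adjusted p below 0.05 over all transcripts. Pools are called separated where every DR pool lay above, or every one below, all AL pools.

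The pools differed by food in ways that were not tied to single genes. The random-sequence control probes give a measure of background relative to the other probes. Their median log2 intensity was 5.62, 5.66, 5.62, 5.44 and 5.28 in AL pools 1 to 5. In the DR pools it ran from 5.10 to 5.24 with a mean of 5.20 ± 0.0517 (SD, n = 6) against 5.52 ± 0.162 (SD, n = 5) on AL food. The control probes were thus dimmer in every DR pool than in any AL pool, and AL pool 5 lay nearest to the DR pools. As deposited, the heart arrays have nearly the same sorted values. The control level therefore tells where these probes rank among all probes and not the absolute background. The share of transcripts above the 95th percentile of the control probes was 70.4%, 70.1%, 73.0%, 77.9% and 85.4% in AL pools 1 to 5. It ran from 84.1% to 96.6% in the DR pools, the highest in DR pool 6, so the groups overlapped only through AL pool 5. Another array measure was the slope of level on probe position within transcripts, which was 0.441 ± 0.0110 log2 units per kb on AL food and 0.519 ± 0.0163 on DR food. The last was the gap between the mean level of transcripts in deciles 6 to 8 of brightness and that in deciles 1 to 3. The gap was 4.06 ± 0.0333 (SD, n = 5) on AL food and 3.59 ± 0.184 (SD, n = 6) on DR food. For each of the 3 measures the groups did not overlap, and the exact two-sided permutation test gave p = 0.004329 (the same after adjustment over the 3), the smallest p that 5 against 6 pools allow. The part of the bright to dim gap in the changes of single transcripts was not tested. Values at a common control probe level, and from a fit on heart arrays alone with that level as a covariate, are given for the calls they end.

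**Figure D1:**
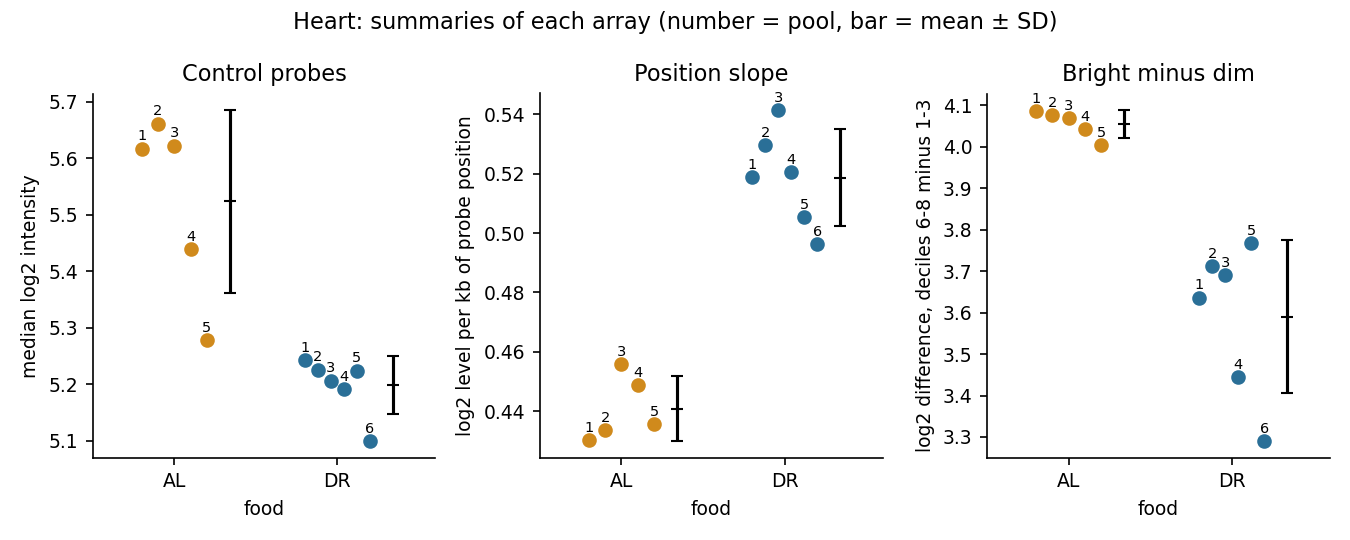
Summaries of each heart array, by food: the median log2 intensity of the control probes, the slope of log2 level on probe position per kb, and the log2 gap between bright and dim transcripts. Each numbered point is 1 pool and the bar is the mean ± SD (n = 5 AL, n = 6 DR). In every panel the AL and DR pools do not overlap, and AL pool 5 and DR pool 6 lie at the low end of the control probe levels of their groups.

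The translating messages of the heart differed between the foods broadly and by modest amounts. Of the 16637 transcripts, 8687 passed (52.2%), 4174 higher on DR food (25.1%) and 4513 lower (27.1%). The median rise among those higher was 0.76 and the median fall among those lower was -0.61, while the median over all transcripts was -0.03. Changes of at least 2-fold that passed numbered 1996 (12%), with 1218 higher (7.32%) and 778 lower (4.68%). Heart arrays fitted by themselves gave 11102 passing transcripts (66.7%), 5232 higher (31.4%) and 5870 lower (35.3%). Pools were separated for 7993 transcripts (48%), 3518 higher (21.1%) and 4475 lower (26.9%), and 7128 both passed and were separated (42.8%), 3236 higher (19.5%) and 3892 lower (23.4%). With AL pool 5 and DR pool 6 both left out, 7568 transcripts passed, 3714 higher and 3854 lower. The split by direction depended on where 0 was set. After each array was shifted to 1 common control probe level, a step that moved the median of all transcripts from -0.03 to 0.29, 6939 transcripts passed as higher and 1545 as lower. A fit on the heart arrays alone with the control probe level as a covariate left 3585, with 1705 higher and 1880 lower. The control probe level separates the foods without overlap, so this fit cannot tell that level and food apart. Whether the calls lost there reflect background was not tested.

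The direction of change followed brightness. Among transcripts in the second decile of mean level over the heart arrays, 796 passed as higher and 132 as lower, with a mean change of 0.37. In the sixth decile 271 passed as higher and 773 as lower, with a mean change of -0.22. In the brightest decile both were fewer, 235 higher and 335 lower, and the mean change was -0.04. The probes of a transcript mostly moved together where it passed. All 8 probes went the same way for 61.5% of the transcripts that passed as lower, 45.6% of those that passed as higher and 10.1% of those that did not pass. Of the passing changes of at least 2-fold, 79.2% had all 8 probes in 1 direction. The mean change by probe order went from -0.05 at the first probe of a transcript to 0.04 at the seventh.

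**Figure D2:**
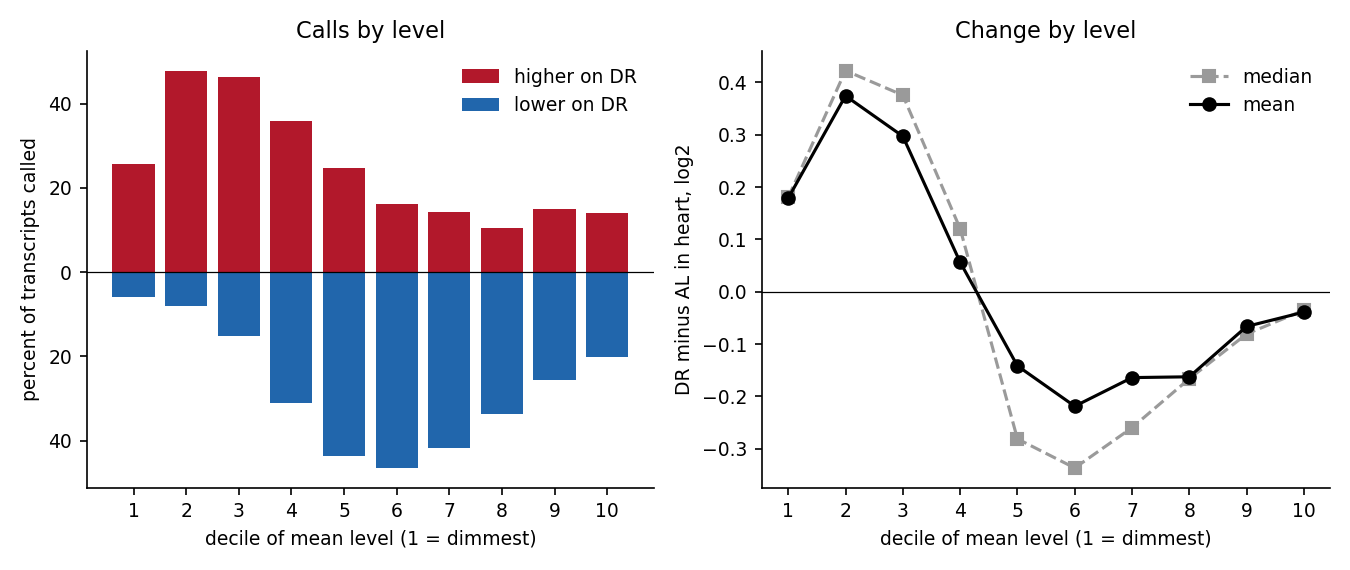
Left, the percent of transcripts that passed as higher (red, upward) or lower (blue, downward) on DR food in each decile of mean level, 1 being the dimmest. Right, the mean (black) and median (grey) DR minus AL change in log2 units in the same deciles. Rises outnumber falls in deciles 1 to 4 and falls outnumber rises from the fifth decile on; the mean change is 0.37 in decile 2 and -0.22 in decile 6.

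A few messages were above the control probes on 1 food alone. No AL pool and all 6 DR pools had a level above the 95th percentile of that array's control probes for 228 transcripts, and 4 transcripts showed the reverse. The control probes themselves were dimmer on DR food, and these 228 were chosen by these same levels, which favours rises. Of the 228, 199 passed as higher, against 25.1% of all transcripts. Every DR pool lay above all AL pools for 177 of them, against 21.1% of all transcripts. A lower bound on the rise was set only where the mean DR level was above the AL background. There the bounds ran from 1.00-fold to 1.58-fold with a median of 1.08-fold, so they were small. A level above the control probes in all 11 pools was found for 11353 transcripts, and 543 were above them in no pool.

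Among the 44 transcripts with a gene, 4 rose on DR food, 11 fell and 29 did not pass, which is 34.1% passing against 52.2% of all transcripts. Their median change was -0.09, against -0.03 over all transcripts. Of the 44, 42 lay above the control probes in all 11 pools, as did 11353 of all 16637 transcripts. Passing changes with separated pools numbered 10 of the 44, against 42.8% of all transcripts. Passing changes of at least 2-fold numbered 3 of the 44, against 12% of all transcripts. All 3 of those were shared messages. At a common control probe level, with the median of all transcripts at 0.29, alpha-Spec was at 0.78 and the message of PIG-M at 0.49. There LanA (0.68), Fatp1 (0.51), His4r (0.35) and the messages of ND-MNLL (0.54), Pbp49 (0.49), Mvk (0.47), Ppcdc (0.44) and CG5116 (0.32), none of which passed as deposited, passed as higher. With heart arrays fitted by themselves, LanA and ND-MNLL passed as higher (adjusted p = 0.0034 and 0.0158). In that fit fend (0.0218), rdx (0.0251) and the messages of Mocs2A and Mocs2B (0.00105), Tfb5 (0.0172) and Dpm2 (0.0315) passed as lower, by their adjusted p, and that of CG42512 and CG32573 did not (0.135). Of the 15 passing changes, 10 did not pass at a common control probe level and 11 did not pass with that level as a covariate. Of the 15, those of CG42305 and CG17325, CG42502 and CG10570, Sws1 and Rad1, and CG45088 and CG6191 passed with the covariate. The covariate goes with food in these pools, so a call can be lost there without a smaller change. The plot of all 44 changes shows most of them within 0.5 log2 units of 0.

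**Figure D3:**
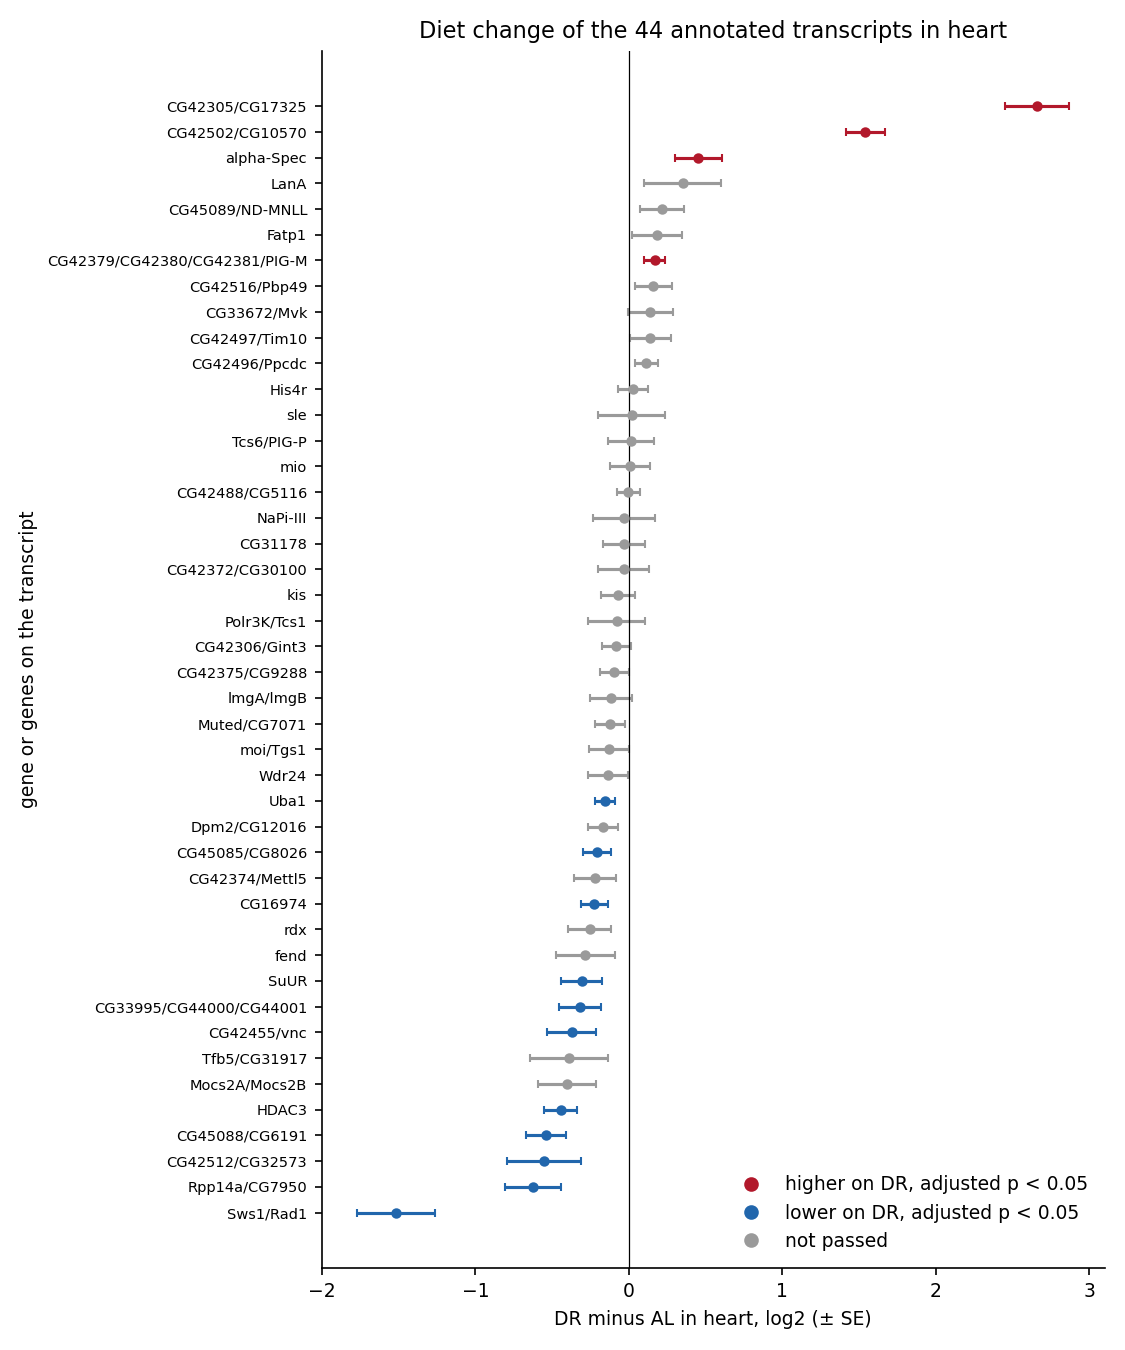
DR minus AL change in heart of the 44 transcripts paired with a gene, in log2 units (n = 5 AL and 6 DR pools). The SE is that of the limma fit over all 82 arrays. Red points passed as higher, blue as lower and grey did not pass. CG42305/CG17325 at 2.66, CG42502/CG10570 at 1.54 and Sws1/Rad1 at -1.52 lie outside the range of the rest.

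The message that carries CG42305 and CG17325 rose most among the 44. Its level was 9.42, 9.71, 9.45, 9.19 and 9.08 in AL pools 1 to 5, and from 11.47 to 12.43 with a median of 12.08 in the DR pools. Every DR pool was well above every AL pool. The change was 2.66 (SE 0.21), or 6.33-fold, with adjusted p = 1.08e-17 over all arrays and 1.64e-07 with heart arrays fitted by themselves. All 8 probes rose, by 2.21 to 2.92. A second shared message, with CG42502 and CG10570, stood at 10.80, 11.21, 10.99, 10.87 and 10.86 on AL food and from 12.20 to 12.62 with a median of 12.52 on DR food. It too was separated, with a rise of 1.54 (SE 0.13), or 2.91-fold, and adjusted p = 1.6e-16 (1.59e-07 with heart arrays fitted by themselves). These rises passed under every alternative run, and the removal of any 1 heart pool left the first at 2.58 to 2.77 and the second at no more than 1.61.

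The message of Sws1 and Rad1 fell most among the 44. Rad1 is a subunit of the ring-shaped clamp that signals DNA damage to the cell cycle. The level was 9.25, 9.20, 9.01, 9.20 and 8.80 in AL pools 1 to 5, and from 7.34 to 7.98 with a median of 7.53 in the DR pools. The groups lay apart by more than their own widths. The fall was -1.52 (SE 0.25), or 2.86-fold, with adjusted p = 1.02e-06, and all 8 probes fell, by different amounts (-2.64 to -0.49). It passed under every alternative run.

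Of 2 genes of the cell's outer frame, 1 rose. The spectrin gene alpha-Spec, whose product forms the skeleton under the cell membrane, was at 11.68, 11.62, 11.83, 11.80 and 11.81 in AL pools 1 to 5 and from 12.03 to 12.36 with a median of 12.21 in the DR pools. The pools were separated and all 8 probes rose, by 0.20 to 0.61. The change of 0.45 (SE 0.15) is 1.37-fold, with adjusted p = 0.0101, and with the control probe level as a covariate it was 0.40 (adjusted p = 0.0572). LanA, a laminin chain of the basement membrane that wraps the heart tube, was at 9.75, 9.94, 10.06, 9.65 and 9.73 on AL food and from 10.04 to 10.33 with a median of 10.17 on DR food. Only AL pool 3 reached into the range of the DR pools. The difference of 0.35 (SE 0.25) did not pass in the fit over all arrays (adjusted p = 0.237), where the spread of the other tissues enters, and passed where heart arrays were fitted by themselves (adjusted p = 0.0034).

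Of the chromatin genes HDAC3, SuUR, kis and His4r, HDAC3 and SuUR fell. HDAC3, a histone deacetylase of corepressor complexes, was at 10.44, 10.30, 10.28, 10.32 and 10.25 in AL pools 1 to 5 and from 9.60 to 10.07 with a median of 9.96 in the DR pools. The pools were separated, and the fall of -0.44 (SE 0.11) passed with adjusted p = 0.000392. It was at -0.29 (adjusted p = 0.225) with the control probe level as a covariate and did not pass at 1 common control probe level, at -0.12. SuUR, which slows replication of heterochromatin, was at 11.44, 11.51, 11.45, 11.35 and 11.39 on AL food and from 10.98 to 11.39 on DR food, so the highest DR pool reached the lower AL pools. Its fall of -0.31 (SE 0.13) passed at adjusted p = 0.0499, was at 0.02 at a common control probe level and did not pass with the covariate (-0.30, adjusted p = 0.169). The removal of any AL pool, or of DR pool 1, 3, 4 or 5, ended the call for SuUR, with values from -0.36 to -0.28 over all 11 removals. The chromatin remodeller gene kis ran from 12.84 to 12.95 on AL food and from 12.79 to 12.87 on DR food, a difference of -0.07 that did not pass (adjusted p = 0.603). His4r makes the same histone H4 protein as many other gene copies, and signal on its probes may come from those. Its uncertain level ran from 13.96 to 14.26 on AL food and from 14.10 to 14.23 on DR food (0.03, adjusted p = 0.828).

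Uba1 and rdx are genes of the ubiquitin system. Uba1, the enzyme that activates ubiquitin, was at 13.67, 13.72, 13.65, 13.60 and 13.54 in AL pools 1 to 5 and from 13.41 to 13.55 with a median of 13.49 in the DR pools. Its groups met at AL pool 5. The fall of -0.15 (SE 0.07) passed at adjusted p = 0.0471, ended with the removal of AL pool 1, 2, 3 or 4 or of DR pool 1, 3, 4, 5 or 6 (-0.18 to -0.13 over all 11), and was at 0.17 at a common control probe level and -0.04 (adjusted p = 0.817) with the covariate. The gene rdx, an adaptor of a Cullin-3 ubiquitin ligase, ran from 13.65 to 14.22 on AL food and from 13.62 to 13.76 on DR food. Its difference of -0.25 (SE 0.14) did not pass (adjusted p = 0.118).

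The genes mio, Wdr24, Fatp1 and NaPi-III act in nutrient sensing or uptake. Subunits of GATOR2, the complex that relays amino acid supply to TORC1, are encoded by mio and Wdr24. The level of mio ran from 10.96 to 11.15 on AL food and had a median of 11.07 and a highest value of 11.13 on DR food, a difference of 0.0070 (SE 0.13; adjusted p = 0.968). That of Wdr24 ran from 11.08 to 11.53 and from 10.98 to 11.25, a difference of -0.14 (SE 0.13; adjusted p = 0.378). For mio the DR pools lay within the range of the AL pools, and for Wdr24 the foods overlapped in part. Fatp1, a fatty acid transport protein, was at 12.02, 12.19, 11.82, 11.70 and 11.98 in AL pools 1 to 5 and from 11.94 to 12.31 in the DR pools, a difference of 0.19 (SE 0.16; adjusted p = 0.341). It passed as higher with array weights (0.26) and at a common control probe level (0.51, adjusted p = 0.0157), and was at -0.04 on later probes alone. The phosphate transporter gene NaPi-III ran from 11.65 to 12.14 and from 11.74 to 12.13 (-0.03, adjusted p = 0.91). Of the remaining single genes, fend was at -0.28 (adjusted p = 0.216) and sle, whose product lies in the nucleolus, at 0.02 (adjusted p = 0.947). CG16974 passed with overlapping pools at -0.23 (adjusted p = 0.0299). The removal of AL pool 1, 3 or 5 or of DR pool 4 or 6 ended the call for CG16974, with values from -0.26 to -0.20 over all 11 removals, and it was at 0.10 at a common control probe level and -0.23 (adjusted p = 0.195) with the covariate. CG31178 was above the control probes in 1 of 11 pools, so its difference of -0.03 says little about the gene.

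Some shared messages carry mitochondrial and metabolic genes. The message with ND-MNLL, a subunit of respiratory complex I, ran from 12.04 to 12.39 on AL food and from 12.38 to 12.55 on DR food, a difference of 0.22 (SE 0.14; adjusted p = 0.191). That with Tim10, a chaperone of mitochondrial protein import, ran from 13.40 to 13.62 and from 13.58 to 13.69 (0.14, adjusted p = 0.392). In both, the DR pools lay at the top of the AL range or above it, by less than the spread that the fit allows for. Ppcdc, an enzyme of coenzyme A synthesis, and Mvk, the mevalonate kinase of isoprenoid synthesis, lie on messages that differed by 0.11 (adjusted p = 0.208) and 0.14 (adjusted p = 0.427). The 2 subunits of molybdopterin synthase, Mocs2A and Mocs2B, share a message that was at 9.91, 9.81, 10.01, 10.00 and 9.79 in AL pools 1 to 5 and from 9.31 to 9.72 in the DR pools. These pools were separated, but the difference of -0.40 (SE 0.19) did not pass over all arrays (adjusted p = 0.0652).

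Other shared messages carry genes of glycolipid anchors and dolichol. The message that carries PIG-M, a mannosyltransferase of glycosylphosphatidylinositol anchors, with CG42379, CG42380 and CG42381 was at 12.05, 12.18, 12.06, 11.99 and 11.96 in AL pools 1 to 5 and from 12.14 to 12.26 in the DR pools. The pools overlapped through AL pool 2. Its rise of 0.17 (SE 0.07) passed with adjusted p = 0.0386 and ended with the removal of AL pool 1, 3, 4 or 5 or of DR pool 2, 4, 5 or 6, with values from 0.15 to 0.20 over all 11 removals. With the covariate it was 0.28 (adjusted p = 0.0764). PIG-P, of the same anchor pathway, shares a message with Tcs6, of a transfer RNA modification complex, which was at 0.015 (adjusted p = 0.94). Dpm2, of the enzyme that makes dolichol phosphate mannose, shares a message with CG12016 that was at -0.17 (adjusted p = 0.152).

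Further shared messages carry genes that act on RNA or in the cell cycle. Rpp14a, named as a ribonuclease P subunit, shares a message with CG7950 that was at 10.43, 10.16, 10.22, 10.11 and 10.22 in AL pools 1 to 5 and from 9.02 to 9.95 with a median of 9.63 in the DR pools. The DR pools spread widely and all lay below the AL pools. The fall of -0.63 (SE 0.18) passed with adjusted p = 0.00316, and all 8 probes fell. At a common control probe level it was at -0.30, and with that level as a covariate at -0.36 (adjusted p = 0.344), without a call in either. The message with Mettl5, a ribosomal RNA methyltransferase, did not pass (-0.22, adjusted p = 0.176). Nor did those with Tgs1, which methylates the cap of small nuclear RNAs (-0.13, adjusted p = 0.421), and with Polr3K, an RNA polymerase III subunit (-0.08, adjusted p = 0.739). AL pool 4 set the result for Mettl5, which was -0.34 and passed without it. Pbp49, of the complex that starts small nuclear RNA transcription, lies on a message at 0.16 (adjusted p = 0.251), and Tfb5, of the transcription and repair factor TFIIH, on one at -0.39 (adjusted p = 0.189). The message of lmgA, a subunit of the anaphase-promoting complex, and lmgB was at -0.12 (adjusted p = 0.494). That of Muted, a subunit of the BLOC-1 complex of lysosome-related organelles, and CG7071 was at -0.12 (adjusted p = 0.304).

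The other falls were on shared messages with little known here of their genes. The message of CG45088 and CG6191 was at 11.64, 11.69, 11.75, 11.80 and 11.70 in AL pools 1 to 5 and from 10.96 to 11.37 with a median of 11.18 in the DR pools. It was separated, all 8 probes fell, and the change was -0.54 (SE 0.13; adjusted p = 0.000502), or -0.21 without a call at a common control probe level. Messages of CG42455 and vnc (-0.37, adjusted p = 0.043), of CG33995, CG44000 and CG44001 (-0.32, adjusted p = 0.0441) and of CG45085 and CG8026 (-0.21, adjusted p = 0.0496) were separated too and passed narrowly. That of CG42512 and CG32573 (-0.55, adjusted p = 0.0461) overlapped between foods and lay above the control probes in 4 AL and 5 DR pools. Each of these 4 calls ended with the removal of several single pools. For CG42455 and vnc these were AL pools 1, 2, 3 and 5 and DR pools 2, 3, 4 and 6 (-0.40 to -0.33 over all removals). For CG33995 with its partners they were every AL pool and DR pools 1, 4 and 6 (-0.36 to -0.24), and for CG45085 and CG8026 every pool but DR pool 6 (-0.22 to -0.19). At a common control probe level those of CG33995 and of CG45085 were above 0, at 0.0057 and 0.12, and that of vnc was at -0.05 without a call. With the covariate that of vnc was at -0.30 (adjusted p = 0.11), that of CG33995 at -0.19 (adjusted p = 0.468) and that of CG45085 at -0.27 (adjusted p = 0.0886). For CG42512 and CG32573 the removals that ended the call were AL pools 1, 2 and 4 and DR pools 1, 3, 4 and 6 (-0.74 to -0.30). That message was at -0.23 (adjusted p = 0.43) at a common control probe level and at 0.29 (adjusted p = 0.716) with the covariate. Its call also ended with array weights, on later probes alone and with the median of the probes. The remaining messages, of CG42372 and CG30100 (-0.03), CG42375 and CG9288 (-0.09), CG42306 and Gint3 (-0.08) and CG42488 and CG5116 (-0.0031), did not pass.

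The largest changes in heart lay on transcripts without a gene name here. FBtr0089324 was at 13.50, 13.82, 13.05, 13.08 and 12.83 in AL pools 1 to 5 and from 6.82 to 9.41 with a median of 7.43 in the DR pools. FBtr0089326 was at 13.11, 13.64, 12.73, 12.86 and 12.37 on AL food and from 7.05 to 8.95 with a median of 7.48 on DR food. On DR food both were near the control probes, and 5 of 6 DR pools lay above their 95th percentile for each. The falls were -5.45 (SE 0.32), or 43.8-fold, and -5.19 (SE 0.28), or 36.6-fold. Their adjusted p was 4.51e-24 and 1.15e-25 over all arrays, and 9.09e-07 and 3.37e-07 with heart arrays fitted by themselves. All 8 probes of both fell. Both fell in the other 6 tissues as well, for instance by -5.84 and -5.63 in muscle and by -7.57 and -7.36 in gut. Only in germ line were the falls smaller than in heart (-3.70 and -3.66). Heart and muscle did not differ in the test of their diet changes (adjusted p = 0.617 and 0.500).

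FBtr0077042 rose most, from 8.88, 8.22, 9.20, 8.79 and 8.71 in AL pools 1 to 5 to between 11.74 and 12.35 with a median of 11.97 in the DR pools. The change was 3.24 (SE 0.24), or 9.42-fold, and all 8 probes rose. Its adjusted p was 2.15e-18 over all arrays and 4.31e-08 with heart arrays fitted by themselves. FBtr0114129 was at 9.98, 9.70, 10.03, 10.13 and 11.29 in AL pools 1 to 5 and from 12.40 to 13.29 with a median of 12.80 in the DR pools. AL pool 5 lay well above the other AL pools for this transcript and still below every DR pool. Its rise was 2.62 (SE 0.47), or 6.13-fold, with adjusted p = 4.83e-06, and with the control probe level as a covariate it was 1.46 (adjusted p = 0.00401). It rose in muscle (1.52), germ line (1.28) and fat body (1.15) as well, and FBtr0077042 in all 7 tissues. These 4 transcripts passed in the same direction under every alternative run.

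**Figure D4:**
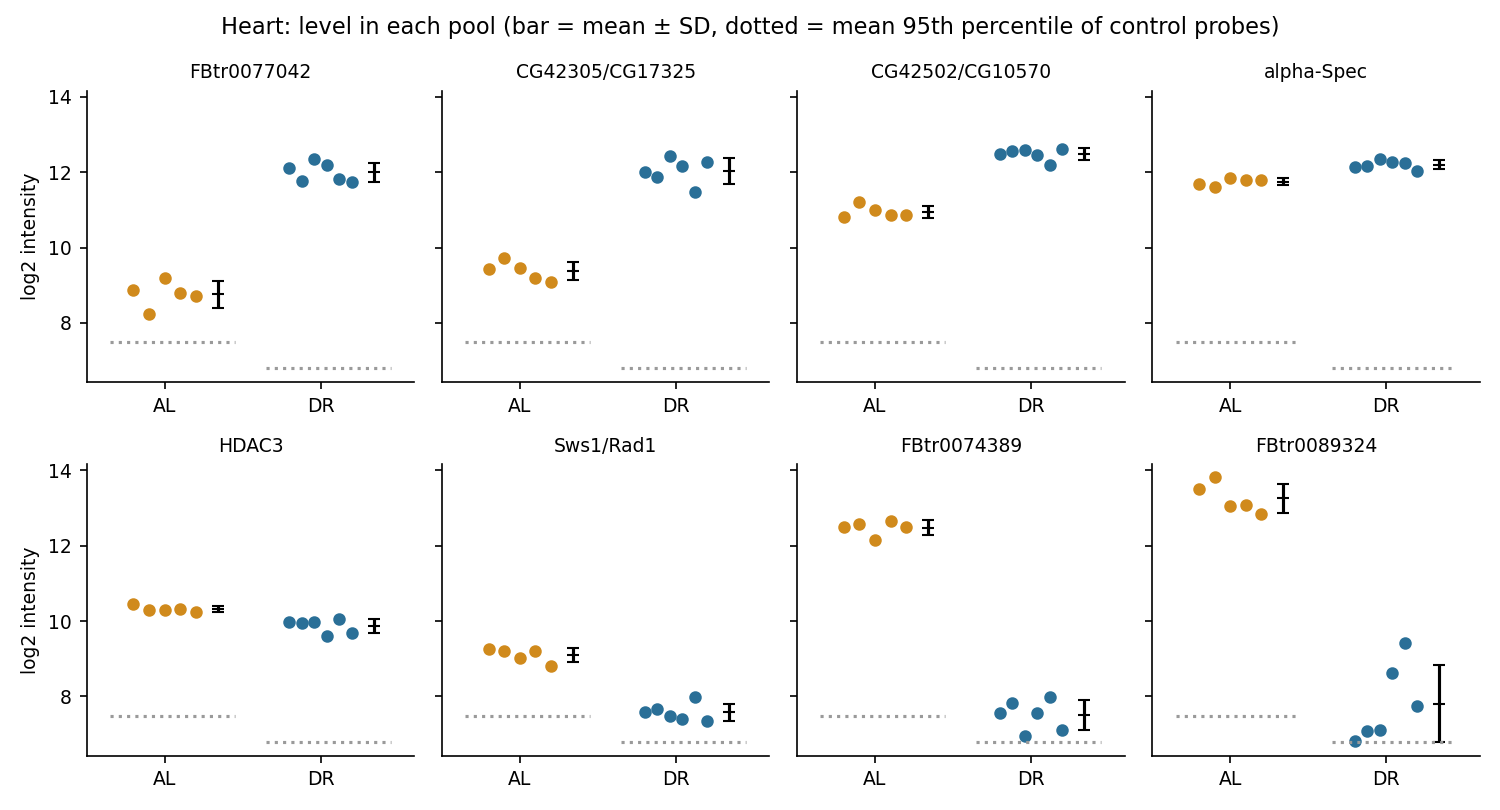
Level of 8 transcripts in each heart pool in log2 intensity, AL pools in orange and DR pools in blue, with the mean ± SD as a bar (n = 5 and 6). The dotted lines mark the mean 95th percentile of the control probes on each food. FBtr0077042, CG42305/CG17325 and CG42502/CG10570 are higher in every DR pool, alpha-Spec less so, and FBtr0074389 and FBtr0089324 come close to the control probes on DR food.

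The heart response was set beside that of muscle, the other contractile tissue in the series. Muscle ribosomes were tagged with MHC-GAL4 (+/+; +/+; MHC-GAL4/UAS-RpL13A-His6FLAG) in 6 AL and 6 DR pools of their own, on the same foods and at the same age. Of the heart calls, 5460 had a call in the same direction in muscle, which is 62.9% of the heart calls and 59.6% of the muscle calls, and 346 had one in the opposite direction. The difference between the diet changes of heart and muscle was tested in the same fit. It passed for 3065 transcripts (18.4%), with the heart change above the muscle change in 1543 (9.27%) and below it in 1522 (9.15%). The difference was at least 2-fold for 605 of them, 227 above and 378 below.

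The 2 directions of that difference were made up differently. Where the heart change was above the muscle change, 863 of 1543 transcripts passed in muscle alone and 254 in heart alone. Where it was below, 819 of 1522 passed in heart alone and 278 in muscle alone. Changes in opposite directions in the 2 tissues, with calls in both, accounted for 107 and 239. The deposited heart arrays have nearly the same sorted values, and the scaling of the other tissues is not given here. With all 82 arrays on 1 quantile scale, 3233 transcripts differed between heart and muscle.

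FBtr0074389 and FBtr0087917 led the differences on the low side. FBtr0074389 was at 12.50, 12.58, 12.15, 12.67 and 12.51 in AL heart pools 1 to 5 and from 6.96 to 7.98 with a median of 7.56 in the DR pools. It fell in heart by -4.98 (SE 0.36), or 31.6-fold, while muscle was at -0.30 (adjusted p = 0.467), a difference of -4.69 (SE 0.49; adjusted p = 4.56e-11). It also fell in fat body (-1.52) and neuron (-1.04), less than in heart. FBtr0087917 was at 10.47, 10.38, 10.86, 10.76 and 10.98 in AL heart pools and from 7.27 to 8.02 on DR food, a fall of -2.97 (SE 0.25), while it rose in muscle by 0.54. The difference was -3.52 (SE 0.35; adjusted p = 4.04e-12), and in Malpighian tubule it fell by as much as in heart (-3.0003). On the high side, FBtr0273419 rose in heart by 1.06 (9.48, 9.29, 9.39, 9.40 and 8.99 in AL pools, 9.68 to 10.84 in DR pools) and fell in muscle by -1.13. FBtr0087905 rose in heart by 1.13 (10.29, 10.01, 10.01, 10.31 and 9.92 in AL pools, 10.62 to 11.55 in DR pools) and fell in muscle by -0.82. Their differences were 2.19 (SE 0.45, adjusted p = 0.00018) and 1.95 (SE 0.32, adjusted p = 4.96e-06). Neither rise was particular to heart. FBtr0273419 also rose in gut (2.79), germ line (0.99) and neuron (0.95). FBtr0087905 also rose in gut (1.24), neuron (1.23) and germ line (0.93), and fell in fat body (-0.82).

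**Figure D5:**
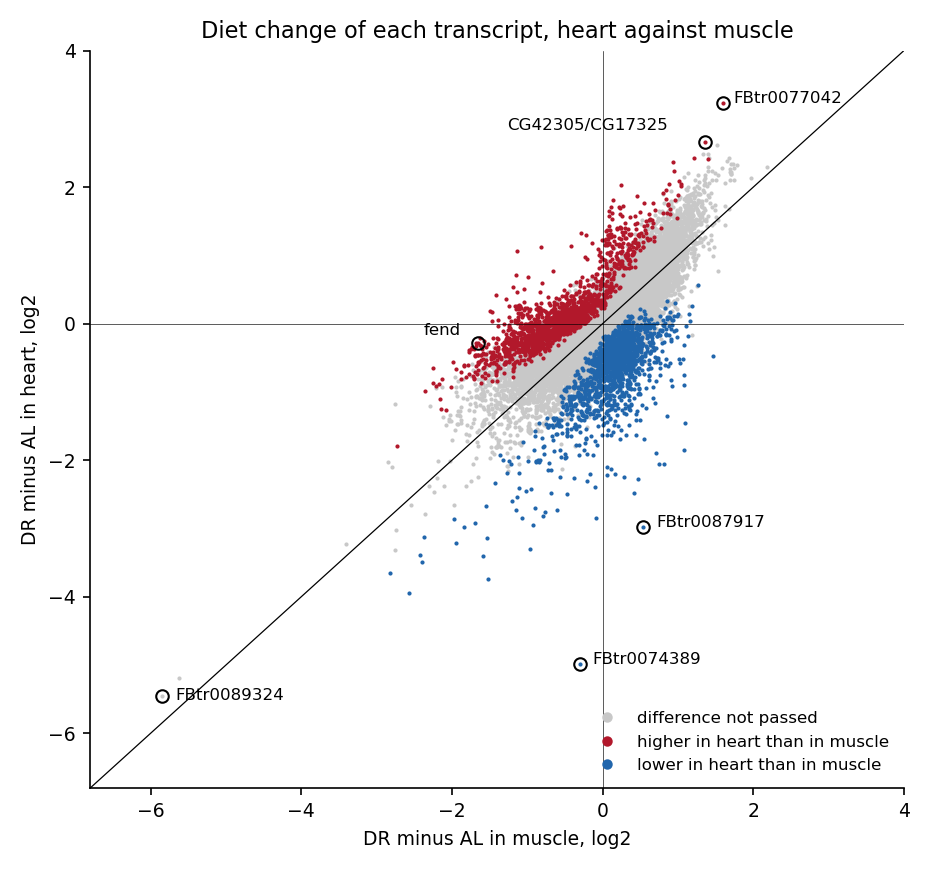
DR minus AL change of each of the 16637 transcripts in heart (vertical) against muscle (horizontal), in log2 units. Coloured points passed the test of the difference between the tissues, 1543 with the heart change above the muscle change (red) and 1522 below it (blue); the diagonal marks equal change. Circled points are named in the text, among them FBtr0074389 at -4.98 in heart and -0.30 in muscle.

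Among the 44 transcripts with a gene, the heart change was above that of muscle in 11 and below it in 2 by this test, 13 of 44 against 18.4% of all transcripts. Most of the 11 fell in muscle and did not pass in heart. The largest were the message of Tfb5 and CG31917 (-0.39 in heart and -1.77 in muscle, a difference of 1.38 with SE 0.35 and adjusted p = 0.00249) and fend (-0.28 and -1.66, a difference of 1.37 with SE 0.27 and adjusted p = 8.71e-05). CG42305 and CG17325 shared a message that rose in both, by 2.66 and 1.36, and the rise in heart was the larger by 1.31 (SE 0.29; adjusted p = 0.000477). The ribosomal RNA methyltransferase message of Mettl5 differed by 0.94 (SE 0.19), that of vnc by 0.88 (SE 0.22), that of CG30100 by 0.85 (SE 0.23) and that of lmgA and lmgB by 0.82 (SE 0.19). Smaller differences held for Tcs6 and PIG-P (0.62), SuUR (0.59), Pbp49 (0.55) and Ppcdc (0.33), and that for Tcs6 and PIG-P did not pass on later probes alone (0.51). The 2 messages below muscle were those of Gint3 (-0.37, adjusted p = 0.0351) and CG5116 (-0.32, adjusted p = 0.0186), which rose in muscle. The call for Gint3 ended without AL pool 3, AL pool 4 or DR pool 6 (-0.39 to -0.32 over all removals), on later probes alone (-0.35), with the median of the probes (-0.35) and on 1 quantile scale (-0.36), and that for CG5116 without AL pool 2 (-0.27).

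Against the mean change of the other 6 tissues, 5446 transcripts differed in heart (32.7%), 2523 with the heart change above that mean (15.2%) and 2923 below it (17.6%). The tissue whose changes followed those of heart most closely across transcripts was germ line (Pearson's r = 0.75 over 16637 transcripts), then muscle (0.725), gut (0.532), tubule (0.435), fat body (0.432) and neuron (0.364). These are descriptions over transcripts that share arrays and brightness, and transcripts are not independent. In germ line 6688 of the heart calls had a call in the same direction, 77% of the heart calls and 56.6% of the germ line calls. In neuron 4431 had one (51% and 40.4%), and 1164 heart calls had a neuron call in the opposite direction (13.4% of heart calls and 10.6% of neuron calls). Heart calls with a call in the same direction in all 6 other tissues numbered 1036, 465 higher and 571 lower. For 537 heart calls no other tissue had a call in the same direction, 117 higher and 420 lower on DR food. Of these 537, 479 passed the test of heart against the mean of the other 6, against 32.7% of all transcripts. Their choice by calls of the same fit favours this, so the count adds no support.

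FBtr0077686 was an example with a fall in heart well below the mean of the rest. It was at 12.01, 12.20, 12.12, 12.23 and 12.26 in AL heart pools 1 to 5 and from 7.84 to 9.54 with a median of 8.91 in the DR pools. The fall of -3.30 (SE 0.21), or 9.84-fold, compares with a mean of -0.13 over the other 6 tissues, where it rose in neuron by 1.46 and fell in muscle by -0.96 and in fat body by -0.90. The difference from that mean was -3.17 (SE 0.22; adjusted p = 2.01e-18). FBtr0074389 differed from the mean of the rest by -4.66 (SE 0.38; adjusted p = 3.92e-15). In the other direction FBtr0087117 was at 8.61, 8.59, 8.95, 8.87 and 8.94 in AL pools 1 to 5 and from 8.28 to 9.06 in the DR pools, with no passing change in heart (-0.10, adjusted p = 0.814). It fell in fat body by -5.38, in gut by -3.98 and in tubule by -2.87, and the difference from the mean was 2.15 (SE 0.35; adjusted p = 3e-06). Muscle (-0.09) and germ line (0.14) showed no passing change either, and its difference between heart and muscle was -0.01 (adjusted p = 0.989). FBtr0114129 differed by 1.94 (SE 0.51; adjusted p = 0.00242), while its difference from muscle alone was 1.09 (adjusted p = 0.266). FBtr0077042 differed by 1.19 (SE 0.26; adjusted p = 0.000349), with rises in neuron (3.41) and tubule (3.33) that were not below the 3.24 of heart.

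Among the 44, 11 differed from the mean of the other 6 tissues, 11 of 44 against 32.7% of all transcripts, and in all 11 the heart change was the higher one. Neuron fell most of the 6 for Mvk (-1.17), moi and Tgs1 (-1.17), Tfb5 (-2.39), Mettl5 (-1.24), Tcs6 (-1.20), Pbp49 (-0.80), Ppcdc (-0.72) and sle (-1.43), but not for the rest of the 11. Mvk, moi and Tgs1, sle, and CG42502 and CG10570 did not differ from muscle (adjusted p = 0.254, 0.282, 0.0504 and 0.0706). The message of CG42305 and CG17325 rose in all 7 tissues, by 1.26 to 1.65 in the other 6, and the rise in heart was above their mean by 1.21 (SE 0.22; adjusted p = 2.5e-05). That of CG42502 and CG10570 rose in all 7 as well, by 0.87 to 1.42 in the other 6, with a difference of 0.44 (SE 0.14; adjusted p = 0.00973). The nucleolar gene sle was at 0.02 in heart against a mean of -0.80 elsewhere (difference 0.82, SE 0.23, adjusted p = 0.00541), and fend at -0.28 against -0.97 (0.69, SE 0.21, adjusted p = 0.00858). Pbp49 differed by 0.53, Tcs6 with PIG-P by 0.47 and Ppcdc by 0.34. Some calls depended on single pools. That for Mettl5 (0.48) ended without AL pool 4 (0.36) and that for Mvk (0.45) without DR pool 6 (0.38). Those for Tfb5 (0.69) and for moi and Tgs1 (0.37) each ended with 7 of the 11 removals. For Tfb5 these were AL pools 3, 4 and 5 and DR pools 1, 2, 3 and 5 (0.63 to 0.76 over all removals), and for moi and Tgs1 AL pools 1, 2, 4 and 5 and DR pools 1, 2 and 6 (0.33 to 0.38). Neither passed on later probes alone. The falls of HDAC3 and of Sws1 and Rad1 did not differ in this test, by 0.10 (SE 0.11; adjusted p = 0.53) and -0.02 (SE 0.27; adjusted p = 0.959), and alpha-Spec differed by 0.01 (SE 0.16; adjusted p = 0.967).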

How the data were processed

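The authors hybridised Cy3-labelled, amplified pulldown RNA to single-colour NimbleGen arrays and, per the labels' protocols, randomised pulldown, amplification and labelling over the groups. As deposited, a probe's value is a linear intensity (132998 transcript probes and 4100 control probes), and the sorted log2 intensities of the heart arrays differ by at most 0.017, as after quantile normalization within the tissue. The scanner, any background correction and the release of the annotation are not given in these sources. The number of arrays limits the precision.

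Intensities were taken to log2, averaged over the probes of a transcript, and fitted over 82 arrays in 14 groups with limma 3.58.1 in R 4.3.3 (68 residual degrees of freedom), with Benjamini-Hochberg adjustment over 16637 transcripts. No transcript was filtered out. Array summaries were compared by exact permutation. Heart and muscle, and heart and the other tissues, were compared by contrasts of their diet changes.

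Transcripts were named through a gene table (its assembly is Release 6 plus ISO1 MT) from which no coordinate was taken. Named are all that pair with 1 symbol, and up to 2 unnamed ones a direction and comparison, taken by size among passing ones (with separated pools for the heart change itself). The 28 shared messages and the 2 genes under a CG number are outside that rule and were added after values were seen. The members and lists were chosen with earlier results of these data known. Of 113 symbols in 13 lists, 14 were paired, at most 4 in 1 list, so no list is tested or counted as a group. Alternatives were other scalings, probe summaries, weights, filters, subsets of arrays, a replicate block and the removal of each pool; 2 were added after seeing the data (AL pool 5 and DR pool 6 left out, and the control probe level as a covariate).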

Additional observations from a re-analysis of the deposited data

Results flagged for a closer look

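Within groups, 9 of 118 sets of pool values tested had a pool far from the rest by Dixon's criterion, which chance meets in about 1 of 20. DR pool 6 had the lowest control probe level (median 5.10, 95th percentile 6.16), the highest level of the messages of Pbp49 (12.98) and Mvk (11.49), and the lowest of Gint3 (12.23). AL pool 5 was high for FBtr0114129 (11.29) and low for moi and Tgs1 (10.43). AL pool 3 was high for Ppcdc (11.85) and DR pool 2 for lmgA and lmgB (11.50).

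The diet change in heart differed from that in muscle, in the test of the difference, for 19 of the named transcripts. With the heart change above the muscle change these were Tfb5 with CG31917 (1.38), fend (1.37), CG42305 with CG17325 (1.31), Mettl5 (0.94), vnc (0.88), CG30100 (0.85), lmgA with lmgB (0.82), Tcs6 with PIG-P (0.62), SuUR (0.59), Pbp49 (0.55), Ppcdc (0.33), FBtr0273419 (2.19), FBtr0087905 (1.95) and FBtr0077042 (1.64). With the heart change below it they were FBtr0074389 (-4.69), FBtr0087917 (-3.52), FBtr0077686 (-2.34), Gint3 (-0.37) and CG5116 (-0.32).

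Against the mean of the other 6 tissues 19 differed too. Above the mean were FBtr0087117 (2.15), FBtr0114129 (1.94), CG42305 with CG17325 (1.21), FBtr0077042 (1.19), FBtr0087905 (0.86), FBtr0089326 (0.86), sle (0.82), Tfb5 (0.69), fend (0.69), Pbp49 (0.53), Mettl5 (0.48), Tcs6 with PIG-P (0.47), Mvk (0.45), CG42502 with CG10570 (0.44), moi with Tgs1 (0.37) and Ppcdc (0.34). Below it were FBtr0074389 (-4.66), FBtr0077686 (-3.17) and FBtr0087917 (-2.75). Of those above the mean, FBtr0087905 rose more in gut (1.24) and neuron (1.23) than in heart (1.13). The call for FBtr0089326 ended on 1 quantile scale over all arrays, where the difference was 0.14, and with the removal of AL pool 3, AL pool 5, DR pool 4 or DR pool 5 (0.62 to 1.03 over all removals).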

How the results depend on the processing

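At 1 common control probe level the heart calls were 6939 higher and 1545 lower. The changes of CG16974 (0.10), CG33995 with its partners (0.0057), CG45085 with CG8026 (0.12), SuUR (0.019), Uba1 (0.17) and CG42488 with CG5116 (0.32) were then above 0. With the dimmest 25% left out 2596 transcripts were higher and 4214 lower. With array weights 9145 differed between heart and the other tissues and 5953 between heart and muscle, and with heart and muscle arrays alone 4872 did. The control probe level as a covariate on heart arrays alone left 3585 calls, 1705 higher, 1880 lower, 3229 of them separated and 981 of at least 2-fold, and put CG42512 with CG32573 at 0.29. The causes were not tested. Leaving out 1 heart pool gave 7802 to 8599 calls, 3804 to 4134 higher, 3998 to 4465 lower, 6808 to 7468 separated, 1762 to 2260 of at least 2-fold, 2694 to 3027 against muscle and 4065 to 5537 against the other tissues. It gave a gap change of -0.501 to -0.405, a control probe change of -0.387 to -0.291 and a slope change of 0.0733 to 0.0824. Heart arrays alone gave 11102 calls and, with the pool number as a replicate block, 10881. The deviations of same-numbered AL and DR pools had correlations of 0.14, 0.36, 0.14, 0.12 and -0.39 for pools 1 to 5. AL pools 2, 3 and 4 correlated best with the DR pool of their own number, and AL pools 1 and 5 did not. With so few pools, these values do not settle whether the numbers pair the pools. As 5 pairs in a replicate block, the gap (-0.405), control probe level (-0.306) and slope (0.0824) could not reach the threshold, since the smallest possible p is 0.0625. Of 3072 values of single results under alternatives, 2702 kept their direction and side of the threshold. A level near the control probes limits the size of a fall that can be measured.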
